A study of Mus musculus with 12 samples.

Results

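The platelet-derived growth factor (PDGF) system was examined in RNA-seq of 12 mouse pancreatic neuroendocrine tumors (PanNETs). It comprised 6 genes, taken by name from the 38924 genes in the tables: the ligands Pdgfa, Pdgfb, Pdgfc and Pdgfd and the receptors Pdgfra and Pdgfrb. All 6 had enough reads to be tested. The tumors came from RIP1Tag2 mice on the C57Bl6 strain, in which the insulin promoter drives an oncogene of viral origin in beta cells, and every group carried this transgene. Per the labels, treatment ran for 4 days from 15.5 weeks of age. The 3 groups of 4 tumors received saline (control), sunitinib, which inhibits the kinases of the VEGF and PDGF receptors, or rapamycin, an mTOR inhibitor, together with sunitinib (R+S). The comparisons ask how the transcripts of a drug's targets and their ligands stood after that drug, with or without mTOR inhibition. The labels do not tie tumors to animals, so p-values measure the spread between these tumors.

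PDGF ligands are secreted dimers that bring receptor chains together at the cell surface and switch on their tyrosine kinases. In growing blood vessels, endothelial cells release PDGF-B, and pericytes, the mural cells that wrap capillaries, carry PDGF receptor beta and are recruited by it. PDGF receptor alpha is best known from fibroblasts and other mesenchymal cells, where PDGF-A and PDGF-C act on it, while PDGF-D acts chiefly on receptor beta.

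Transcripts of the PDGF-B and PDGF-D branch were lower in sunitinib-treated tumors, and those of the PDGF-A and PDGF-C branch did not pass the test in any comparison. Pdgfb fell 2.96-fold, Pdgfd 2.30-fold and Pdgfrb 2.28-fold in sunitinib-treated against control tumors. Under R+S, Pdgfb fell 2.12-fold and Pdgfd 1.93-fold, the latter at the edge of the threshold.

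All 6 genes are protein coding in the GENCODE annotation of the mouse build GRCm38. Pdgfa (ENSMUSG00000025856) lies on the minus strand of chr5:138976014-138997370 and Pdgfb (ENSMUSG00000000489) on the minus strand of chr15:79995874-80014977. The other ligands lie on plus strands, Pdgfc (ENSMUSG00000028019) at chr3:81036416-81214040 and Pdgfd (ENSMUSG00000032006) at chr9:6168584-6378850. The receptor gene Pdgfra (ENSMUSG00000029231) spans chr5:75152292-75198215 on the plus strand. Pdgfa shared 26.1% of its exon bases with 6330403L08Rik on the opposite strand, so its reads rest on the strand setting of the count, which is not given in the sources used here. Smaller overlaps were 2.89% of the exon bases of Pdgfc, with Gm16000 on the opposite strand, and 0.299% of those of Pdgfra, with Mir7025 on the same strand. Pdgfra also shared 6.21% with opposite-strand genes that were not counted. By sequence, reads of the family could be told apart. Of the 50-base words in the transcripts of each member, none occurred in another gene except 0.12% of those of Pdgfra.

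Pdgfc and Pdgfd are the closest relatives among the ligands, and only Pdgfd passed the test in either comparison with control. The difference between their changes was not tested. Their promoters are shown for that reason, as the 250 bases before the RefSeq start in GRCm38.p6, both on the plus strand, with motif matches in capitals. The Pdgfc stretch is chr3:81036166-81036415 and the Pdgfd stretch is chr9:6168236-6168485.
Pdgfc: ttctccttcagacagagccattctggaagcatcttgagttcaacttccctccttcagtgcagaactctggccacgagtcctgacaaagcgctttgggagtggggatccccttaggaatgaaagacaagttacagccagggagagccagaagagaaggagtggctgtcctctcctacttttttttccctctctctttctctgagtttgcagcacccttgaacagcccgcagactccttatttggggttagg
Pdgfd: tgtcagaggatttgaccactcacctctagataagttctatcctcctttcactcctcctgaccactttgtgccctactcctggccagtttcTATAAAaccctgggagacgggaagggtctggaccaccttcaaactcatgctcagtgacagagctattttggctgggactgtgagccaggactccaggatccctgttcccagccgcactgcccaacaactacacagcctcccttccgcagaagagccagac
The capitals in Pdgfd mark TATAAA, the letters of a TATA box core, 160 bases before the start, and whether they act as one was not tested. These letters occurred on either strand in 12.4% of 32841 such promoters. Also searched on both strands were ACGTG (held by 16.6% of promoters), TGACTCA (4.46%), GGGCGG (32.7%), CCATAT (5.89%) and CAGCTG (13%), and none of these letters is in either window. The GC content was 50.8% for Pdgfc and 53.6% for Pdgfd. Stretches for Pdgfa and Pdgfra were also in the table, and GGGCGG was found in both stretches listed for Pdgfa. Pdgfb and Pdgfrb are not shown.

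The gene counts of a tumor summed to 31872342 at the lowest, 38526164 at the median and 44215054 at the highest. Values below are CPM, which are read counts scaled to a common library size, after TMM normalization, which sets the scale by the bulk of the genes. The control tumors share 1 code in their labels, and the treated tumors carry other codes, so whatever the code stands for and treatment cannot be told apart. Sunitinib-treated tumor 6 stood apart from its group: its correlation with the others was 0.872 to 0.895, against 0.957 to 0.991 for the other pairs within groups. Results are therefore also given without it where they rest on it. Markers of acinar cells, the enzyme-secreting cells of the surrounding pancreas, summed to 41.0 to 122 CPM in control, 10712 to 38971 in sunitinib-treated and 2922 to 16190 in R+S-treated tumors, and 14 of the 15 tested were called higher in both treated groups. Their part in the results below was not tested.

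Pdgfb encodes the ligand of vessel growth. Its CPM was 13.0, 13.4, 18.5 and 13.6 in control tumors 1 to 4. In sunitinib-treated tumors 5, 6, 8 and 12 it was 4.39, 3.98, 5.09 and 6.32, and in R+S-treated tumors 4, 5, 7 and 10 it was 7.57, 6.14, 6.25 and 7.62. Every treated tumor lay below every control tumor, and the sunitinib and R+S ranges overlapped only between 6.14 and 6.32. On raw reads the lowest control tumor had 481 and the highest treated tumor 308. The mean fell from 14.6 ± 2.58 (SD, n = 4) to 4.95 ± 1.03 with sunitinib and 6.90 ± 0.812 with R+S. The log2 fold change was -1.56 ± 0.20 (SE) for sunitinib against control, with a 95% interval of -2.01 to -1.12 and an adjusted p of 0.000751 by edgeR's quasi-likelihood test. For R+S against control it was -1.08 ± 0.20, with an interval of -1.52 to -0.64 and an adjusted p of 0.0111. The sunitinib call held with each of the 8 tumors left out in turn. The R+S call was lost without control tumor 3 (adjusted p = 0.0507) and without R+S-treated tumor 7 (0.0504).

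**Figure D1:**
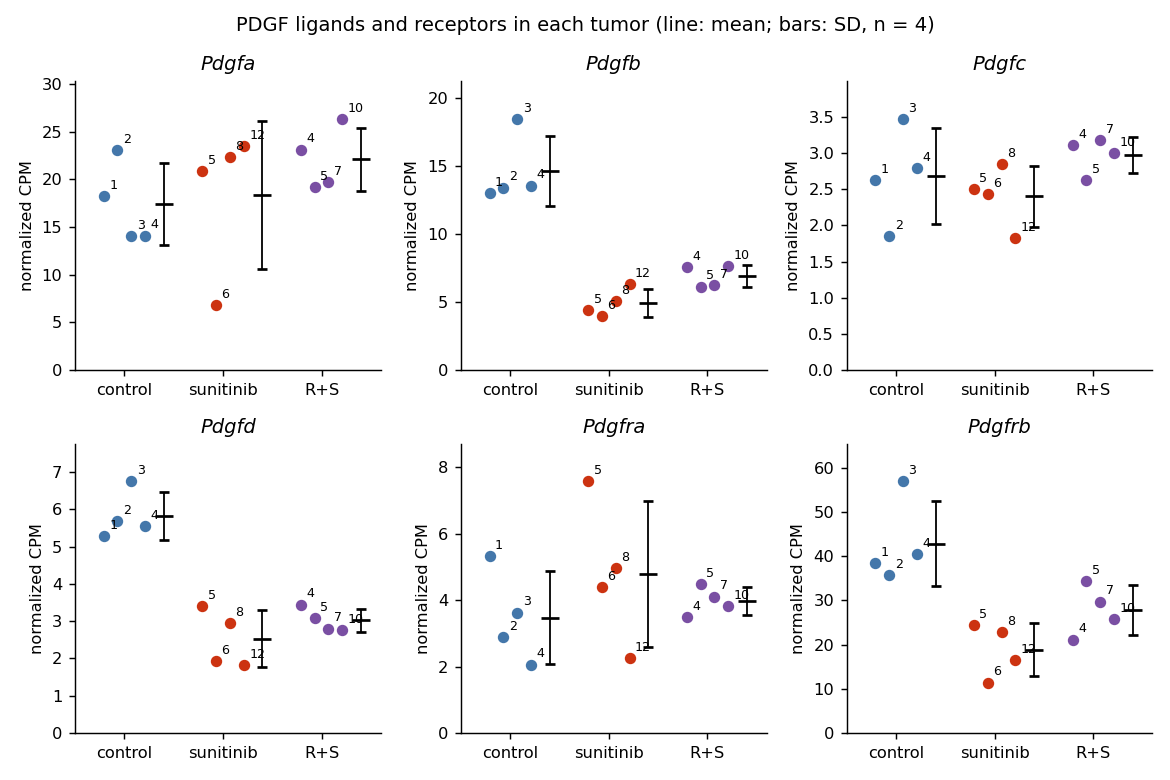
Normalized CPM (vertical axes, from 0) of the 6 PDGF genes in each tumor, by treatment group on the horizontal axes, with tumor numbers beside the points and the mean and SD of each group (n = 4) to their right. Pdgfb, Pdgfd and Pdgfrb are lower in all 8 treated tumors than in any control tumor, while the groups overlap for Pdgfa, Pdgfc and Pdgfra.

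Pdgfd, a ligand that must be cut by proteases before it binds, was present at lower counts. Its CPM was 5.28, 5.69, 6.75 and 5.55 in control tumors 1 to 4, from 197 to 266 reads. It was 3.39, 1.93, 2.95 and 1.83 in sunitinib-treated tumors 5, 6, 8 and 12, and 3.44, 3.08, 2.80 and 2.75 in R+S-treated tumors 4, 5, 7 and 10. All treated tumors again lay below all controls, and the treated groups overlapped. The mean was 5.82 ± 0.642 in control, 2.53 ± 0.769 in sunitinib-treated and 3.02 ± 0.317 in R+S-treated tumors. The log2 fold change of Pdgfd with sunitinib was -1.20 ± 0.24 (adjusted p = 0.0147, 95% interval -1.73 to -0.67). With R+S the change was -0.95 ± 0.24 (interval -1.47 to -0.42), with an adjusted p of 0.0498. That R+S call did not survive the removal of any of the 8 tumors (adjusted p 0.0728 to 0.157), and the sunitinib call was lost without control tumor 3 (0.0578) and in a fit of only the 8 tumors compared (0.0801).

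Pdgfa, the ligand with the highest mean level per length in each group, overlapped between all groups. Its CPM was 18.2, 23.1, 14.0 and 14.1 in control tumors 1 to 4, then 20.8, 6.80, 22.3 and 23.5 in sunitinib-treated tumors 5, 6, 8 and 12, and 23.1, 19.2, 19.7 and 26.3 in R+S-treated tumors 4, 5, 7 and 10. Sunitinib-treated tumor 6 was the lowest of the 12. The log2 fold change was 0.08 ± 0.32 for sunitinib (adjusted p = 0.914, interval -0.63 to 0.79) and 0.35 ± 0.33 for R+S (0.586; interval -0.36 to 1.06), both against control. Without tumor 6 the sunitinib value was 0.36 ± 0.19 (adjusted p = 0.326). These intervals include changes in either direction.

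Pdgfc, a ligand that also needs cutting before it binds, was the ligand with the lowest level per length. Its CPM was 2.63, 1.85, 3.47 and 2.79 in control tumors 1 to 4, 2.50, 2.43, 2.85 and 1.83 in sunitinib-treated tumors 5, 6, 8 and 12, and 3.11, 2.63, 3.18 and 3.00 in R+S-treated tumors 4, 5, 7 and 10, on 57 to 137 reads each. The groups overlapped. The log2 fold change was -0.16 ± 0.24 for sunitinib (adjusted p = 0.743; interval -0.69 to 0.36) and 0.15 ± 0.24 for R+S (0.773; interval -0.38 to 0.67). A change of the size seen in Pdgfd lies outside both intervals.

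Pdgfrb (ENSMUSG00000024620, plus strand of chr18:61045150-61085061) encodes PDGF receptor beta, the receptor of pericytes. Its CPM was 38.4, 35.7, 56.9 and 40.5 in control tumors 1 to 4, against 24.5, 11.4, 22.8 and 16.5 in sunitinib-treated tumors 5, 6, 8 and 12. In R+S-treated tumors 4, 5, 7 and 10 it was 21.1, 34.4, 29.8 and 25.8. The lowest control tumor, at 35.7, was above the highest treated tumor, at 34.4, and the treated groups overlapped. The mean was 42.9 ± 9.57, 18.8 ± 6.03 and 27.8 ± 5.64 in control, sunitinib-treated and R+S-treated tumors. Pdgfrb fell by 1.19 ± 0.25 on the log2 scale with sunitinib (adjusted p = 0.018; interval -1.73 to -0.64). For R+S the value was -0.63 ± 0.25 (interval -1.17 to -0.09), which did not pass over all genes in edgeR (adjusted p = 0.181, unadjusted 0.0262) or in DESeq2 (0.115). The sunitinib call was lost without control tumor 3 (0.0668), without sunitinib-treated tumor 12 (0.0535) and in a fit of only the 8 tumors compared (0.0641).

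Pdgfra encodes PDGF receptor alpha, which is best known from mesenchymal cells. Its CPM was 5.33, 2.88, 3.63 and 2.06 in control tumors 1 to 4, 7.58, 4.39, 4.96 and 2.25 in sunitinib-treated tumors 5, 6, 8 and 12, and 3.50, 4.49, 4.11 and 3.81 in R+S-treated tumors 4, 5, 7 and 10. The R+S-treated tumors all lay within the control range, and the sunitinib-treated tumors spread from 2.25 to 7.58. The log2 fold change was 0.46 ± 0.37 for sunitinib (adjusted p = 0.511; interval -0.33 to 1.26) and 0.19 ± 0.37 for R+S (0.81; interval -0.60 to 0.99).

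Against control, 3 of the 6 genes were called lower with sunitinib and 2 with R+S, and none was called higher in edgeR or DESeq2. Over all 16645 tested genes, 2.55% were called lower and 1.93% higher with sunitinib, 2.61% lower and 1.55% higher with R+S, and the median log2 fold change was 0.03 and 0.01. DESeq2 also called 3 and 2 of the members lower. The 3 genes whose groups did not overlap, Pdgfb, Pdgfd and Pdgfrb, reached the smallest p of a two-sided exact permutation test of 4 against 4, 0.0286, in each comparison with control. Of all genes, 5.76% lay wholly below control with sunitinib and 11.9% with R+S. The 2 comparisons share the control tumors.

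**Figure D2:**
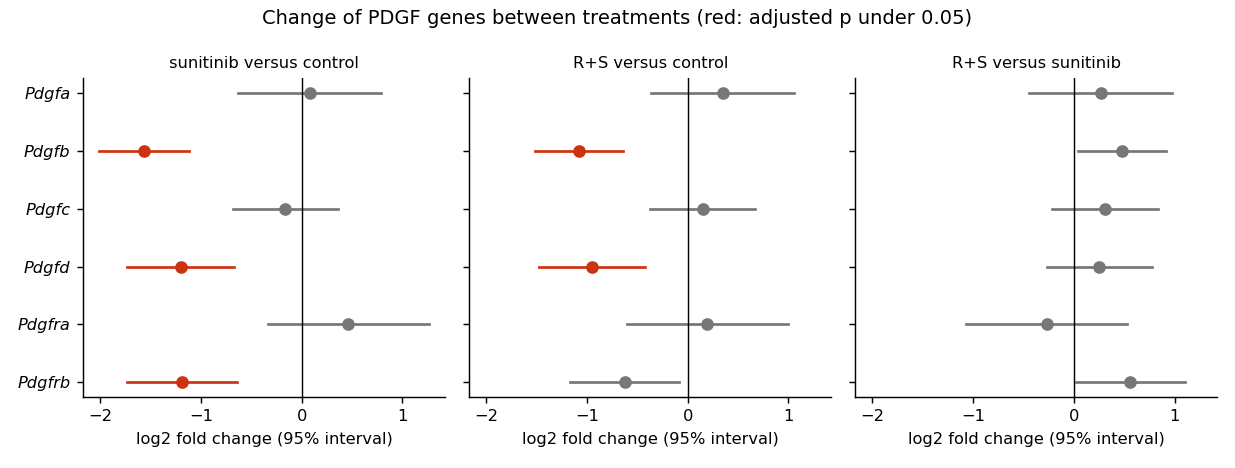
Log2 fold change (horizontal axes) of the 6 PDGF genes in the 3 comparisons, with 95% intervals from edgeR, in red where the adjusted p is under 0.05. The intervals of Pdgfb, Pdgfd and Pdgfrb lie below 0 in both comparisons with control, and no gene is red for R+S against sunitinib.

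Adding rapamycin to sunitinib gave no called PDGF gene. In edgeR, 0 of the 6 passed, with 2 at an unadjusted p under 0.05, and DESeq2 called 0. Over all genes 7.21% were called in this comparison, and 30.4% had an unadjusted p under 0.05. The 2 genes were Pdgfb, at 0.48 ± 0.20 (adjusted p = 0.133; interval 0.04 to 0.92), and Pdgfrb, at 0.56 ± 0.25 (0.151; interval 0.02 to 1.10). For both, R+S-treated tumors had the higher mean, and the groups overlapped. Pdgfd stood at 0.25 ± 0.24 (adjusted p = 0.494), Pdgfc at 0.31 ± 0.24 (0.402), Pdgfa at 0.27 ± 0.32 (0.597) and Pdgfra at -0.27 ± 0.37 (0.637). The Pdgfa value was -0.0067 without sunitinib-treated tumor 6.

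Genes can be compared with each other only per length, and levels are next given as CPM per kilobase of annotated exons. In control tumors Pdgfrb came first at 7.83 ± 1.75 (SD, n = 4), followed by Pdgfa at 5.57 ± 1.38, Pdgfb at 3.51 ± 0.619, Pdgfd at 1.84 ± 0.204, Pdgfc at 0.528 ± 0.131 and Pdgfra at 0.347 ± 0.139. The ranges of Pdgfrb and Pdgfa overlapped, as did those of Pdgfc and Pdgfra. The other neighbors did not overlap. In sunitinib-treated tumors Pdgfa came first at 5.89 ± 2.50, then Pdgfrb at 3.43 ± 1.10, Pdgfb at 1.19 ± 0.247, Pdgfd at 0.802 ± 0.244, Pdgfra at 0.478 ± 0.219 and Pdgfc at 0.472 ± 0.0833, and only Pdgfrb and Pdgfb did not overlap. In R+S-treated tumors the order was Pdgfa at 7.08 ± 1.07, Pdgfrb at 5.07 ± 1.03, Pdgfb at 1.66 ± 0.195, Pdgfd at 0.957 ± 0.101, Pdgfc at 0.585 ± 0.0484 and Pdgfra at 0.397 ± 0.0425, with overlap only between the first 2. Taking the longest transcript as the length put Pdgfa before Pdgfrb in control tumors as well, at 8.43 against 7.91.

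**Figure D3:**
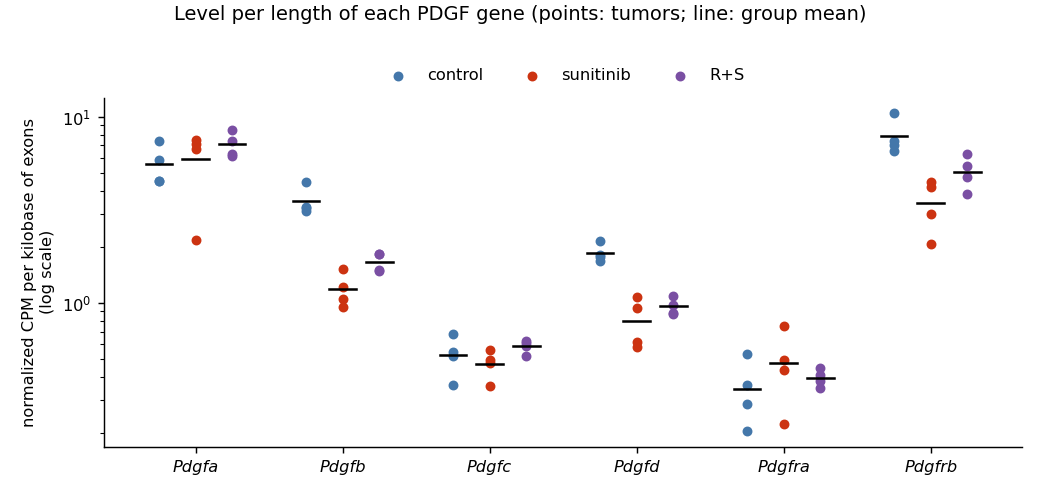
Level of each PDGF gene as normalized CPM per kilobase of exons, on a log axis, with 1 point per tumor and a line at each group mean. Pdgfrb, Pdgfa and Pdgfb lie highest in control tumors, and Pdgfc and Pdgfra lie lowest in every group.

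Shares of the members within the system are given as a description. Of the summed level per length of the 4 ligands, Pdgfb made up 25.2% to 37.8% in control, 11.3% to 22.6% in sunitinib-treated and 15.6% to 16.7% in R+S-treated tumors. Pdgfa made up 38.2% to 57.9%, 51.6% to 75.4% and 67.4% to 72.0%. The level of Pdgfrb was 13.2 to 36.0 times that of Pdgfra in control, 4.74 to 13.5 times in sunitinib-treated and 11.1 to 14.0 times in R+S-treated tumors. These quotients follow from the values of single genes above.

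In bulk tumors, fewer cells of a type and less RNA per cell cannot be told apart. Markers of the cells in which PDGF genes are best known were therefore set beside them. Most endothelial genes were lower than control in both treated groups: 12 of 14 fell with sunitinib, with a list median of -2.87 on the log2 scale, and 12 of 14 with R+S, with a median of -1.88. Among them, Pecam1, an adhesion molecule of endothelial junctions, had log2 fold changes of -2.56 and -1.61, Cdh5, the cadherin of those junctions, -2.92 and -1.92, and Kdr, the main VEGF receptor, -4.83 and -3.65, each called. Not called in edgeR were Esam, at -0.93 and -0.79, and Vwf, at -0.12 with sunitinib and 0.66 with R+S (adjusted p = 0.0859). DESeq2 called 12 lower with sunitinib, and 12 lower and 1 higher with R+S. Without sunitinib-treated tumor 6, edgeR called 13 lower with sunitinib, Esam among them at -1.60 (adjusted p = 0.00698), and 12 with R+S. The summed CPM of the list was 682 to 890 in control, 85.9 to 130 in sunitinib-treated and 166 to 215 in R+S-treated tumors, and no gene of it was at 0. For R+S against sunitinib, where Pdgfb stood at 0.48 and was not called, 9 of the 14 were called higher, with a median of 0.90, and 8 without sunitinib-treated tumor 6. Their part in that Pdgfb value was not tested. Pdgfb changed less than most of the list: 11 of the 14 endothelial genes had a lower log2 fold change than Pdgfb with sunitinib, and 12 with R+S. Per 100 CPM of endothelial markers, Pdgfb stood at 1.84 to 2.07 CPM in control, 3.06 to 7.36 in sunitinib-treated and 3.47 to 4.59 in R+S-treated tumors. This ratio was 2.36-fold higher with sunitinib and 1.97-fold higher with R+S, without overlap with control (two-sided exact permutation p = 0.0286 for each, the smallest possible). It was chosen after earlier results were known. Without sunitinib-treated tumor 6 its log2 difference was 1.43, against 1.24 with it. The list genes moved by unlike amounts with sunitinib, from -4.83 for Kdr to -0.12 for Vwf, and the sum weighs the most abundant of them most. The ratio is therefore not a level of Pdgfb per endothelial cell.

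**Figure D4:**
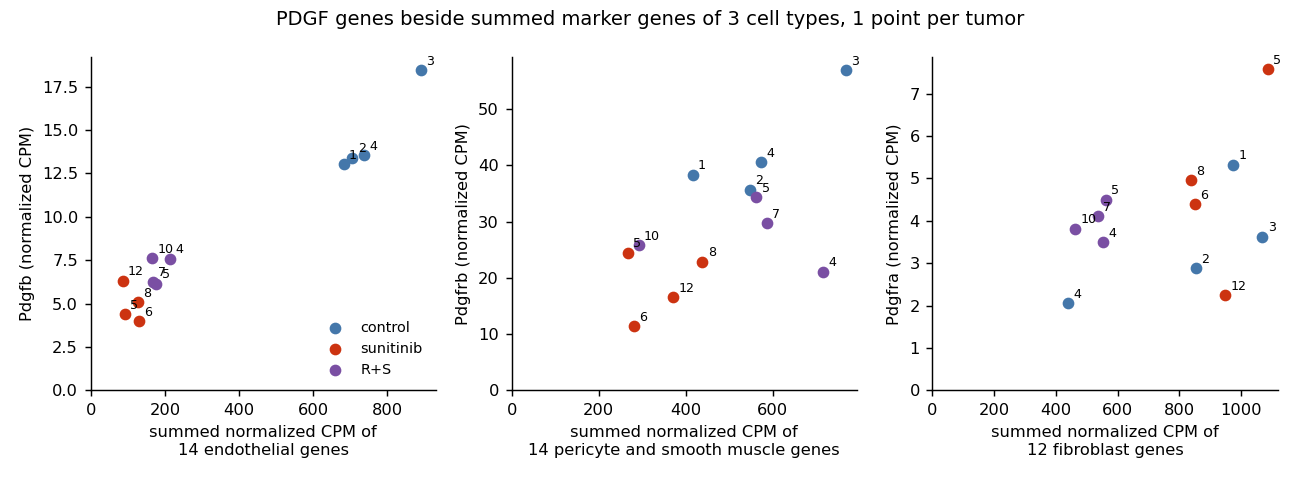
CPM of Pdgfb, Pdgfrb and Pdgfra (vertical axes) against the summed CPM of endothelial, pericyte and smooth muscle, and fibroblast markers (horizontal axes), 1 numbered point per tumor, colored by treatment. In the left panel, treated tumors lie at 85.9 to 215 CPM of endothelial markers and control tumors at 682 to 890, while the marker sums of treated and control tumors overlap in the other panels.

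Pericyte and smooth muscle markers moved unevenly beside Pdgfrb. With sunitinib, 4 of 14 fell: Rgs5, a regulator of G-protein signaling in pericytes (log2 fold change -1.41), Kcnj8, a potassium channel subunit (-2.06), Notch3, the Notch receptor of mural cells (-1.35), and Mcam, a surface adhesion molecule (-1.78). The list median was -0.58. With R+S, Rgs5 (-0.79) and Kcnj8 (-1.55) fell, and the median was -0.50. R+S against sunitinib called Rgs5 higher, at 0.62 (adjusted p = 0.0493), and Notch3 higher, at 1.11 (0.0448). Neither call held without sunitinib-treated tumor 6. Against control, 5 of the 14 were then called lower with sunitinib and 3 with R+S. The contractile smooth muscle genes did not pass in edgeR: Acta2 stood at 0.42 with sunitinib and 1.38 with R+S, Myh11 at 0.37 and 1.53, and Cnn1 at 1.32 and 2.08. DESeq2 called 7 of the 14 genes lower with sunitinib, and 4 lower and 1 higher with R+S. The summed CPM was 416 to 768, 267 to 438 and 292 to 714 in control, sunitinib-treated and R+S-treated tumors, and no gene was at 0. Pdgfrb CPM per 100 CPM of this list was 6.53 to 9.23 in control, 4.04 to 9.19 in sunitinib-treated and 2.95 to 8.86 in R+S-treated tumors, which overlap. The list sum also moves with a few genes. Cox4i2 stood at 0.648 to 1.60 CPM in control and 0.434 to 97.2 in sunitinib-treated tumors. Acta2 and Myh11 averaged 46.1 and 30.5 CPM in control and 120 and 87.8 in R+S-treated tumors. The ratio is therefore not a level of Pdgfrb per pericyte.

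Fibroblast markers, set beside Pdgfra, gave 0 of 12 called with sunitinib in edgeR, with 0 at an unadjusted p under 0.05 and 0 in DESeq2. With R+S, 1 of 12 fell in edgeR, the collagen chain Col6a3 (-1.80), and the median was -0.73. There, 5 were at an unadjusted p under 0.05, all lower, and DESeq2 called 4 lower. Summed CPM was 438 to 1069, 836 to 1086 and 463 to 561. Pdgfra CPM per 100 CPM of the list was 0.338 to 0.546 in control, 0.237 to 0.698 in sunitinib-treated and 0.633 to 0.824 in R+S-treated tumors. For R+S against control this ratio was 1.82-fold higher without overlap (two-sided exact permutation p = 0.0286, the smallest possible), while Pdgfra itself did not pass. The ratio was among several compared and was also chosen after earlier results were known. Its denominator was lower, as 11 of the 12 fibroblast genes had a negative log2 fold change with R+S.

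Other cell types that could bear PDGF transcripts were checked as well. Macrophage markers, 11 in number, gave 3 called lower with sunitinib (Adgre1, Mrc1 and Fcgr1) and 1 with R+S (Mrc1), over summed levels of 631 to 899, 291 to 871 and 416 to 623 CPM, none at 0. Platelets store PDGF protein, but their genes were near 0: only 2 of 8 could be tested, the list summed to 4.54 to 7.19, 2.98 to 5.26 and 2.08 to 2.96 CPM, and Gp6 had no read in any control or R+S-treated tumor. Pf4, a platelet chemokine, fell with R+S (-2.63). Duct markers gave 3 of 7 called higher with sunitinib (Sox9, Spp1 and Muc1) and sums of 388 to 509, 257 to 621 and 370 to 467 CPM. Krt7 alone held 364 to 479, 38.1 to 454 and 319 to 402 CPM, so these sums mostly follow Krt7 in control and R+S-treated tumors. With sunitinib, 6 of the 7 had a positive log2 fold change and 1, Krt7, a negative one (-0.51). Beta cell and neuroendocrine genes, the markers of the labelled tumor type, summed to 49583 to 77533 CPM in control tumors. They summed to 13568 to 95362 in sunitinib-treated and 55297 to 84577 in R+S-treated tumors, the lowest in sunitinib-treated tumor 6. For some beta cell genes the lowest sunitinib-treated value was far below control, at 4.17 CPM for Pdx1, 3.04 for Mafa and 338 for Ins1. The lowest control values of these were 313, 51.1 and 3835. Their means were 217, 87.4 and 9656 with sunitinib against 341, 84.4 and 8476 in control. For Chga and Chgb the lowest values were 2849 and 2097 with sunitinib against 2581 and 1466 in control. None of the 14 genes of this list was called in any comparison by edgeR, with 0, 1 and 2 at an unadjusted p under 0.05 and 0, 0 and 1 in DESeq2. Without sunitinib-treated tumor 6, the counts were 4 of 11 macrophage genes lower with R+S, 1 and 2 of 12 fibroblast genes lower with sunitinib and R+S, and 2 and 3 of 7 duct genes higher with sunitinib and R+S. The part of these cells in the PDGF values was not tested.

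Around the 6 genes, binding proteins and coreceptors had the largest median change of the PDGF pathway lists in both comparisons with control. This list held 6 genes, and 3 fell in each comparison with control, with list medians of -1.35 and -0.85. Nrp1, a coreceptor for VEGF that also binds PDGF, had a CPM of 54.4 to 75.3 in control, 9.30 to 17.7 in sunitinib-treated and 12.1 to 20.1 in R+S-treated tumors, with log2 fold changes of -2.22 ± 0.21 (adjusted p = 8.87e-05) and -2.04 ± 0.21 (0.000288). Hspg2, the basement membrane proteoglycan perlecan, had changes of -2.46 ± 0.25 (0.000153) and -1.78 ± 0.25 (0.00211). Sparc, a matrix protein that binds PDGF-B, had changes of -1.03 ± 0.23 (0.0277) and -1.34 ± 0.23 (0.00823). For these 3 genes, no treated tumor reached the control range. The remaining members were at -1.51 and -0.36 for Cspg4, a pericyte proteoglycan, at -1.18 and -0.24 for Thbs1, thrombospondin, and at 0.09 and 0.19 for the endocytic receptor Lrp1, and none passed in edgeR. DESeq2 called 5 of the 6 lower with sunitinib and 3 with R+S.

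Few proteases that process PDGF ligands were called. None of 7 was called with sunitinib in edgeR, with 1 at an unadjusted p under 0.05 and 0 in DESeq2. Furin, the proprotein convertase that cuts the A and B chains, was the only member called by edgeR with R+S. Its CPM was 54.8 to 70.2 in control, 48.5 to 71.3 in sunitinib-treated and 83.7 to 103 in R+S-treated tumors, and it rose by 0.56 ± 0.14 against control (adjusted p = 0.0426) and by 0.63 ± 0.14 against sunitinib (0.0294). Every R+S-treated tumor lay above all others. Over the 7 genes, DESeq2 called 1 higher with R+S against control, and 1 higher and 1 lower with R+S against sunitinib. Without sunitinib-treated tumor 6, Plat, the tissue plasminogen activator that can activate PDGF-C, was also called, at -1.003 with sunitinib (0.0466) and -0.92 with R+S (0.0323).

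Receptor adaptors and effectors numbered 31, with medians of -0.10 and 0.00 against control. Fyn, a kinase of the Src family that docks on PDGF receptors, fell by 0.77 ± 0.15 with R+S (0.0138). Stat5b was higher with R+S than with sunitinib, at 0.59 ± 0.15 (0.0418). The subunits of phosphoinositide 3-kinase, the Ras adaptors and the kinases of the MAP kinase cascade did not pass in any comparison with all 12 tumors. Without sunitinib-treated tumor 6, Stat5b was also called with R+S against control, at 0.46 (0.0488), and Map2k2 with R+S against sunitinib, at -0.63 (0.0414).

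**Figure D5:**
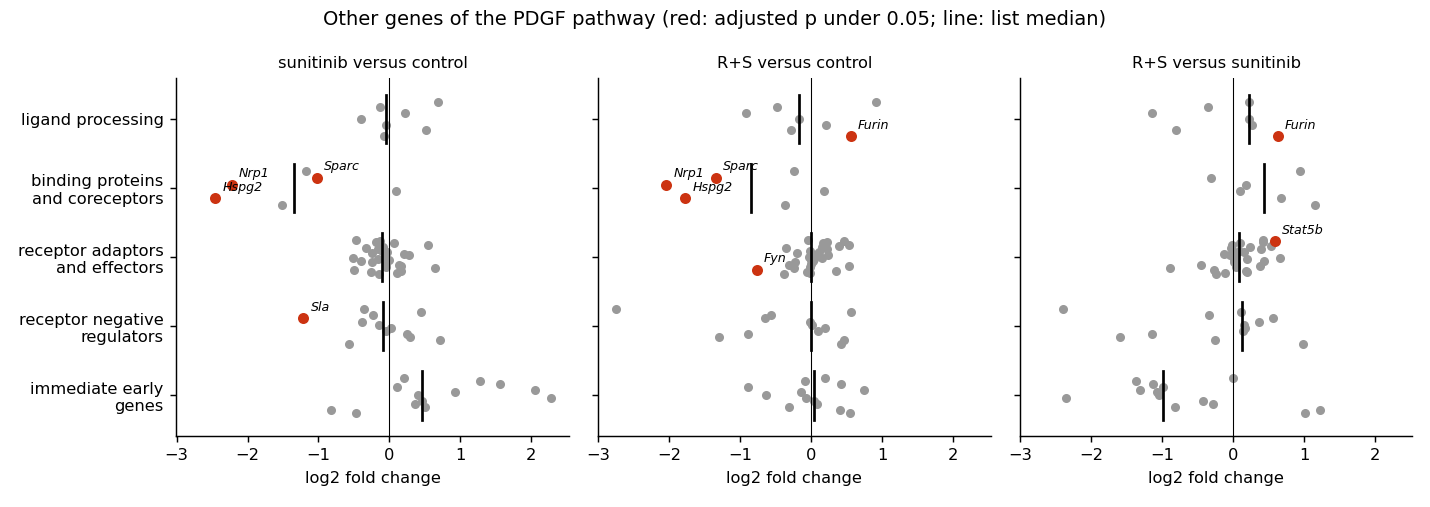
Log2 fold change (horizontal axes) of the tested genes of 5 PDGF pathway lists in the 3 comparisons, 1 point per gene apart from 1 gene that is not shown, in red and named where the edgeR adjusted p is under 0.05, with a line at each list median. Nrp1, Hspg2 and Sparc lie to the left in both comparisons with control, and most adaptors lie near 0.

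The lists of receptor negative regulators and immediate early genes rested on sunitinib-treated tumor 6. Of 12 negative regulators, 1 fell with sunitinib, Sla, an adaptor that dampens receptor signaling, by 1.21 ± 0.24 (adjusted p = 0.0137). With R+S none was called in edgeR, with 3 at an unadjusted p under 0.05 and 1 in DESeq2. In tumor 6, Dusp6, a phosphatase that acts on ERK, stood at 57.5 CPM, against 13.0 to 16.8 in control, 3.72 to 6.90 in the other sunitinib-treated and 4.55 to 7.80 in R+S-treated tumors. Spry4, an inhibitor of Ras signaling, stood at 21.03 CPM there, against 6.59 to 9.33, 0.501 to 2.12 and 0.545 to 1.60. All treated tumors but tumor 6 were below control for both genes. Without tumor 6, Spry4 was at -2.85 ± 0.53 with sunitinib (0.00837) and -2.75 ± 0.47 with R+S (0.00541), Dusp6 at -1.55 ± 0.25 (0.00401) and -1.31 ± 0.23 (0.00617), and Spry1 at -0.96 (0.00544) and -0.57 (0.0367). The count of called regulators was then 4 with sunitinib and 3 with R+S, and Ptpn12, a phosphatase, was called for R+S against sunitinib, at 0.50 (0.039).

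Immediate early genes, which PDGF induces within minutes in cultured cells, were 15, of which 13 could be tested. In edgeR none was called in any comparison, with 5, 1 and 8 at an unadjusted p under 0.05 and 3, 1 and 4 called by DESeq2 for sunitinib against control, R+S against control and R+S against sunitinib. Their summed CPM reached 591 in tumor 6, while its group otherwise held 194 to 226, control tumors 188 to 242 and R+S-treated tumors 195 to 226. Fos, a subunit of the AP-1 factor, had 61.8 CPM in tumor 6, against 3.06 to 8.98 elsewhere in that group. The list median with sunitinib was 0.46, and -0.16 without tumor 6. For R+S against sunitinib it was -0.99, and -0.07 without tumor 6. Without it, Jun was called for R+S against control, at -0.89 (adjusted p = 0.0395), and Myc for R+S against sunitinib, at -0.58 (0.0436).

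The genes whose log2 CPM followed each member most closely over the 12 tumors were ranked by Pearson's r among 11763 or 11764 genes. The tumors share their treatment groups, so r partly repeats the group differences, and it is given as a description. For Pdgfb they were Esm1 (0.97), Emcn (0.97) and Robo4 (0.97), all known from endothelial cells. For Pdgfd they were Hspg2 (0.98), the laminin chain Lamc1 (0.98) and the basement membrane collagen Col15a1 (0.98). For Pdgfrb they were the chemerin receptor Cmklr1 (0.97), Ms4a6c (0.93) and the macrophage marker Adgre1 (0.92). Pdgfra went with the matrix genes Ogn (0.89) and Cilp (0.86) and with Fgl2 (0.84). Pdgfa went with Rnf186 (0.95), Sowahb (0.95) and Lpin3 (0.95), and Pdgfc with C2cd5 (0.86), Neil1 (0.83) and Ppp1r12b (0.82). After group means were subtracted, Esm1 stood at 0.66 with Pdgfb, Lamc1 at 0.95 with Pdgfd, Cmklr1 at 0.91 with Pdgfrb and Ogn at 0.89 with Pdgfra.

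Among the members, r over the 12 tumors was 0.88 for Pdgfd with Pdgfrb, 0.87 for Pdgfb with Pdgfd and 0.82 for Pdgfb with Pdgfrb. With group means subtracted these became 0.66, 0.02 and 0.21. The r of Pdgfra with Pdgfrb was -0.09, and 0.39 with group means subtracted.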

How the data were processed

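RNA-seq was performed on 12 RIP1Tag2 PanNETs, 4 per group as labelled. The authors deposited 1 table of raw read counts per gene and tumor, as whole numbers without normalization. Their processing notes name cutadapt 1.2.1, TopHat2 2.0.9, HTSeq 0.5.4p3 and GRCm38. The annotation release and strand setting are not given in the sources used here. Libraries were stranded and made from poly(A) RNA. Reads on no gene or on several genes (12.1% to 19.5% of uniquely aligned reads) and reads aligned to several places stayed out of all totals and tests. Symbols came from GENCODE M21 (37607 of 38924 identifiers matched), and promoters from RefSeq.

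Counts were TMM normalized and tested by edgeR 4.0.16 (R 4.3.3; quasi-likelihood, robust). Genes were kept by filterByExpr (minimum count 10, minimum total 15; 16645 genes), a single fit held all 12 tumors in 3 groups, and p-values were Benjamini-Hochberg adjusted over all genes with a threshold of 0.05. Standard errors are the absolute log2 fold change over the square root of F. Two-sided exact permutation tests took the 70 arrangements of log2 CPM (prior count 2). The fit was tested on simulated data. No 2 tumors of a group agreed within sampling noise. PCR copies were not marked, so counting error is a lower bound.

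The members and lists were chosen with earlier results of these data known. Named are the 6 members, the 3 genes most like each (average log2 CPM of at least 2, no predicted genes), called members of pathway lists and the first 3 markers of cell type lists, apart from some that are not reported here. Further names in the text, such as Col6a3, Acta2, Dusp6, Spry4 and Fos, were chosen after their values were seen. Alternatives were DESeq2 1.42.0, other scalings and filters, only the compared tumors, tumors sharing a label code summed, each tumor left out, the longest transcript as length and a prior count of 0.5. Lists and ratios without sunitinib-treated tumor 6 were added after seeing the data.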

Additional observations from a re-analysis of the deposited data

Results flagged for a closer look

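Pdgfa stood at 6.80 CPM in sunitinib-treated tumor 6, against 20.8 to 23.5 in the other 3 tumors of that group, a gap larger than Dixon's 95% limit for 4 values. The antisense gene 6330403L08Rik, which overlaps Pdgfa, had 74 reads in the same tumor and 655 to 1144 in the other 11, and its part in the Pdgfa value was not tested. Pdgfb stood at 18.5 CPM in control tumor 3, against 13.0 to 13.6 in the other control tumors, which passed the same limit. Summed endothelial markers were also highest in that tumor among the controls, at 890 CPM. Chance flags about 1 in 20 groups.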

How the results depend on the processing

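Of 288 values of the 6 genes under alternatives, 265 kept their direction and their side of the threshold, 17 lost a call, 0 gained one and 6 changed sign, all 6 of them among values that were not called. Pdgfd for R+S against control was at -0.94 without a filter (adjusted p = 0.0905) and -0.94 with tumors of 1 label code summed (0.0541). With only the 8 tumors compared, Pdgfd was at -1.20 (0.0801) and Pdgfrb at -1.19 (0.0641) for sunitinib against control. With each tumor left out in turn, Pdgfb for R+S against control ranged from -1.13 to -0.95, Pdgfd from -1.36 to -1.07 for sunitinib and from -1.01 to -0.87 for R+S against control, and Pdgfrb from -1.33 to -1.01 for sunitinib against control. The sign changed for Pdgfa (sunitinib against control -0.061 to 0.36, R+S against sunitinib -0.0067 to 0.41) and Pdgfra (R+S against sunitinib -0.50 to 0.030).

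Counts of genes called moved more. DESeq2 called 1477, 1688 and 3045 genes for sunitinib against control, R+S against control and R+S against sunitinib, in place of 745, 693 and 1200. Only the tumors compared gave 380, 2557 and 3. No filter gave 501 for R+S against sunitinib, and at least 10 reads in every tumor gave 408 for sunitinib against control. Leaving out 1 tumor gave 440 to 902, 292 to 621 and 0 to 2861. Library size alone moved the higher and lower calls of R+S against control from 258 and 435 to 206 and 546. After subtracting group means, 3 of the 18 genes most like the members were still among the first 3. Beyond the fewer tumors or the other genes that these settings test, the cause was not tested. No paired analysis was possible because no pair of groups shares more than 1 replicate number.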
